A study of Homo sapiens with 8 samples.

Results

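Splice junctions of 5 genes whose proteins lie in the Golgi apparatus, the endoplasmic reticulum (ER) or the nuclear envelope were followed across all libraries: GCC2, ERGIC3, TMEM214, TOR1AIP2 and ZDHHC16. They were 5 of 22261 genes with an assigned junction in the series. The 5 genes were selected on higher junction use in K700E than in wild-type cells at day 4, so every day 4 difference in their junction use is a description and carries no test. Day 8 was not used for that choice. In these genes the libraries listed 301 junctions, of which 107 are introns of GENCODE release 29. With at least 5 uniquely mapped reads in 2 libraries, 130 of the 301 remained, and the other 171 are not described.

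The cells were K562, an established human erythroleukaemia line, with either the wild-type form or the K700E substitution of the splicing factor SF3B1. The labels name doxycycline at 1 ug/ml for all 8 libraries, to induce the modified allele, without saying whether the wild-type cells carry an inducible allele too, and give 2 libraries for each genotype at 4 and at 8 days. They do not say whether replicates came from separate cultures or clones, so p-values measure only the spread between these libraries, which may be technical. Total RNA was sequenced, and a value is the number of uniquely mapped reads that cross a junction.

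SF3B1 belongs to the U2 snRNP, which binds the branch point ahead of an acceptor (3′ splice site); with K700E, acceptors upstream of the usual one come into use. GCC2 (GCC185) is a golgin that tethers transport vesicles at the trans-Golgi network, and ERGIC3 is a cargo receptor that cycles between ER and Golgi. TMEM214 is an ER membrane protein linked to caspase-4 activation under ER stress, TOR1AIP2 (LULL1) activates torsin ATPases in the ER and nuclear envelope, and ZDHHC16 is a palmitoyltransferase that attaches fatty acids to other membrane proteins.

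The acceptors at which the choice was made are printed first, from GENCODE release 29 transcripts on GRCh38, plus strand, 5′ to 3′. Capitals mark the AG that ends the intron, first at the upstream acceptor and then at the reference acceptor, the one most used in wild-type cells at day 4. For ERGIC3 the third capital AG belongs to a further acceptor inside the exon. For the TMEM214 cassette exon the capital AG closes the stretch of 25 nt that is present only in a longer form of that exon.
GCC2, chr2:108486483-108486512: aaagctaaatttaaAGatttacccccAGat
ERGIC3, chr20:35556919-35556992: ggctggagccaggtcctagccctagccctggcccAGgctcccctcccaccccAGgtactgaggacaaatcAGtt
ZDHHC16, chr10:97455603-97455669: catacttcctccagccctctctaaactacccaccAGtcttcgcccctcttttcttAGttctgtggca
TMEM214 near acceptor A, chr2:27035543-27035603: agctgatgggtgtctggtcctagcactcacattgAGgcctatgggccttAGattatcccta
TMEM214 near acceptor B, chr2:27035910-27035979: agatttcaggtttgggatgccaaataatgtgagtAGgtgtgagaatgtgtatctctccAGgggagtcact
TMEM214 cassette start, chr2:27037790-27037819: agcccattctgaggcttttccttAGctccc

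Each stretch between the first 2 capital AGs, the second included, is what the upstream acceptor adds to the messenger RNA: 12 nt in GCC2, 18 nt in ERGIC3, 21 nt in ZDHHC16, and 15 and 24 nt at the TMEM214 near acceptors A and B. Of the 14 bases before the upstream AG printed for GCC2, 8 are A and 5 are pyrimidines. For ERGIC3 and ZDHHC16, 16 and 18 of the 25 bases before it are pyrimidines. TOR1AIP2 gains 15 nt, chr1:179865855-179865869 on the minus strand, which lie in no exon of the annotation.

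The added lengths were all multiples of 3. This held for the 5 lengths above, for TOR1AIP2 and for the 78-nt cassette exon of TMEM214. The added bases brought no in-frame stop codon in the transcripts that could be read in frame, which were the protein-coding ones with an annotated start codon and an exon that begins at the reference acceptor: 1 for GCC2, 2 for ERGIC3, 7 for ZDHHC16, and 1 and 2 for the TMEM214 near acceptors. Transcripts annotated without a start codon, among them several of ERGIC3, were not read. Over the series, 70 of the 150 acceptors that lie 1 to 50 nt upstream and were called higher in K700E at day 4 add a multiple of 3 (46.7%), as did 1193 of 2371 that were not called (50.3%). The TOR1AIP2 insert adjoins an exon that is coding in 0 of the 4 protein-coding transcripts, so no reading frame was read there.

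Before the results, 2 day 8 libraries have to be named that went against their labels, wild type replicate 2 and K700E replicate 1. The mean share of the 5 leading junctions, described next, at day 4 was 4.54% and 5.13% in wild type, against 34.6% and 33.2% with K700E. It was 5.39% and 41.1% at day 8 in replicates 1 and 2 with the wild-type label, and 3.67% and 41.7% under the K700E label. At day 8 the replicate 1 libraries of both labels were therefore low and the replicate 2 libraries of both labels high. No library was moved. Unique reads per library ranged from 49338071 to 77750812. Of the unannotated junctions with a unique read, 28.5% to 42.3% had exactly 1 in 6 libraries, against 4.47% and 6.26% under the wild-type label at day 8, where rare junctions were thus seldom listed and a 0 may be too low. GATA1, an erythroid factor, stood at 122 to 213 CPM (counts scaled to library size) in every library. The labels call the cells epithelial, while the epithelial markers CDH1 and GRHL2 reached at most 0.0414 and 0.0839 CPM and KRT8 was at 164 CPM or more.

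A share is the reads of a junction as a percentage of all unique reads at the splice site it shares with others. A junction was called where edgeR's quasi-likelihood test (diffSpliceDGE) gave a Benjamini-Hochberg adjusted p under 0.05 and the share moved by 5 percentage points or more. At day 4, 0.468% of 69838 junctions tested for acceptor choice at a shared donor were called and 0.359% were called higher in K700E. Of the 55 junctions tested in the 5 genes, 5 were called higher and 1 lower, 1 higher in each gene. For donor choice at a shared acceptor, 0.0309% of 64625 were called and 0.0139% called higher, and in the 5 genes 1 of 48 was called, higher. The choice of genes used these calls, so nothing is read from the counts. The series-wide split of acceptor calls was 251 higher and 76 lower with edgeR, and 156 higher and 140 lower with limma on the same junctions. The 327 edgeR calls fell to 25 and 8 when wild-type replicate 1 or 2 was left out, and to 110 and 74 when K700E replicate 1 or 2 was.

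GCC2 (ENSG00000135968.20, chromosome 2, 108448561 to 108509415, plus strand) gained an acceptor that lies 12 nt before the reference one, in the unannotated junction chr2:108485909-108486498. At day 4 it took 4 of 278 donor reads (1.44%) and 13 of 340 (3.82%) in the wild-type libraries, and 232 of 442 (52.5%) and 156 of 334 (46.7%) in K700E. The groups did not overlap, at 2.63% ± 1.69 (SD, n = 2) and 49.6% ± 4.09, a gain of 47.0 points. About as many GCC2 reads in K700E used the upstream acceptor as the reference, which fell to 49.5% ± 4.09 from 96.3% ± 0.622. At day 8 the pair with the wild-type label had 0 of 241, which allows up to 1.24% (3 reads), and 106 of 199, 53.3% (95% Wilson interval 46.3% to 60.1%). The pair with the K700E label had 1 of 116, 0.862% (0.152% to 4.72%), and 91 of 131, 69.5% (61.1% to 76.7%). The last is the highest share of a leading junction in the 5 genes and 8 libraries. The intervals and the 3-read limit cover counting error only. In the annotation the added bases are exonic in GCC2-202 alone, a transcript marked for nonsense-mediated decay, and the exon they precede is coding in 1 of 5 protein-coding transcripts.

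ERGIC3 (ENSG00000125991.19, chromosome 20, 35542021 to 35557634, plus strand) had the smallest gain and the deepest site. Its annotated junction chr20:35556272-35556954 ends 18 nt upstream of the reference acceptor. At day 4 it held 6 of 1076 reads (0.558%) and 12 of 1192 (1.01%) in wild type and 120 of 1188 (10.1%) and 90 of 996 (9.04%) in K700E. The means were 0.782% ± 0.318 and 9.57% ± 0.753 (SD, n = 2), 8.79 points apart, with no overlap. Most ERGIC3 transcripts thus kept the reference acceptor in K700E, at 87.3% ± 2.18. At day 8 the pair with the wild-type label stood at 0.51% (0.269% to 0.966%) and 15.0% (13.3% to 17.0%), and the pair with the K700E label at 1.18% (0.736% to 1.88%) and 15.5% (13.7% to 17.4%). The added bases are coding in 2 of the annotated transcripts, ERGIC3-208 and ERGIC3-210.

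The next most used acceptor at the same ERGIC3 donor lies 18 nt downstream of the reference and is unannotated. It took 0.0929% and 0.336% in wild type, against 3.2% and 1.61% with K700E, at day 4. It was 0% of 1765 reads (limit 0.17%) and 0.654% under the wild-type label at day 8, and 0.277% and 1.9% under the K700E label. At day 4 both K700E libraries were above both wild-type libraries, and at day 8 both replicate 2 libraries above both replicate 1 libraries. A junction that skips an early ERGIC3 exon, chr20:35542394-35542821, chosen after its values were seen, held 0.558% and 0.985% in wild type and 3.44% and 2.36% in K700E at day 4. Both stayed under 5 points of change, on the outer side of the call rule, while the 8.79 points of the leading junction were the smallest gain inside it among the 5 genes.

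TMEM214 (ENSG00000119777.19, chromosome 2, 27032910 to 27041695, plus strand) differed from the other genes in the kind of junction: it took up a whole exon. The exon of 78 nt, chr2:27037815-27037892, is coding in TMEM214-204, and its leading junction chr2:27037893-27038145 joins it to the next exon. Among reads at that shared acceptor the junction took 82 of 434 (18.9%) and 88 of 509 (17.3%) in wild type and 303 of 554 (54.7%) and 222 of 420 (52.9%) in K700E at day 4. The means of 18.1% ± 1.14 and 53.8% ± 1.3 (SD, n = 2) were 35.7 points apart without overlap. Unlike the other 4 leading junctions it was well used in wild type. At day 8 it stood at 15.1% (13.1% to 17.3%) and 55.8% (51.8% to 59.7%) under the wild-type label, and at 9.47% (7.41% to 12.0%) and 53.0% (49.2% to 56.7%) under the K700E label.

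The junction into the same TMEM214 exon gave the matching picture from its other side. From the upstream donor it took 11.5% and 10.0% in wild type and 52.9% and 56.2% in K700E at day 4, then 9.92% and 52.8% under the wild-type label and 8.84% and 54.4% under the K700E label at day 8. Skipping of the exon took 79.6% and 81.1% in wild type and 44.0% and 38.9% in K700E at day 4, a loss and the 1 junction called lower. A longer form of the exon, 103 nt, starts 25 nt further upstream. That length is no multiple of 3, and the form is exonic in TMEM214-206, which is marked for nonsense-mediated decay. Its share was 7.24% and 6.94% in wild type against 2.8% and 4.72% in K700E at day 4, so of the 2 acceptors of this exon only the inner one had a higher share in K700E. At day 8 it was 3.43% and 8.43%, then 3.1% and 3.57%, in the same order of labels, which did not follow the inner acceptor.

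**Figure D1:**
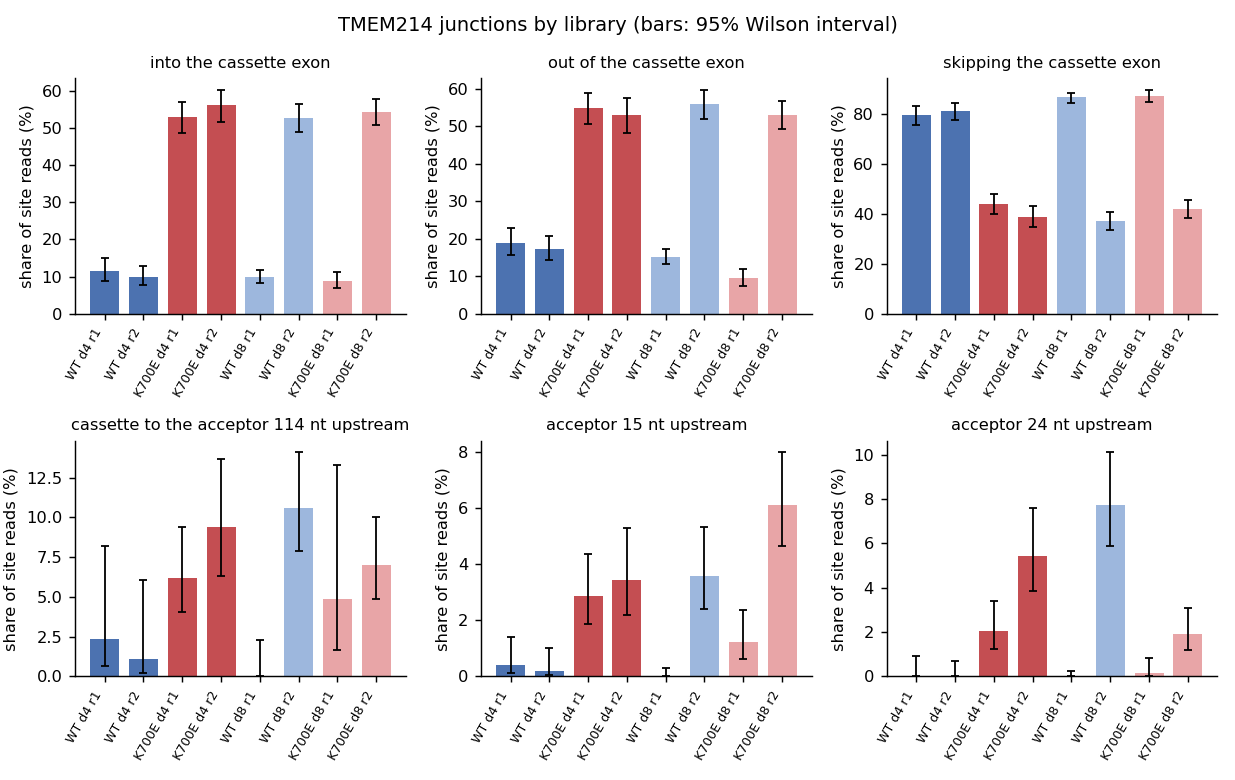
Share of reads at the shared splice site (vertical axis, percent; each panel has its own scale) for 6 TMEM214 junctions in the 8 libraries, with day 4 in dark and day 8 in pale colours, wild type blue and K700E red, d for day, r for replicate. Error bars are 95% Wilson intervals of single libraries, and skipping is the 1 panel in which the K700E libraries at day 4 (44.0% and 38.9%) lie below wild type.

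TMEM214 had 3 further acceptors with low shares, chosen after their values were seen. From the cassette exon, an annotated acceptor 114 nt upstream of the usual one took 2.35% and 1.12% in wild type and 6.19% and 9.39% in K700E at day 4. At day 8 it took 0% of 166 reads (limit 1.81%) and 10.6% under the wild-type label, and 4.84% and 7.01% under the K700E label. Near acceptor A, 15 nt upstream in an earlier intron, took 0.391% and 0.181% against 2.85% and 3.42%. Near acceptor B, 24 nt upstream in the following intron, took 0 of 422 and 0 of 561 reads, which allows up to 0.711% and 0.535%, against 2.03% and 5.41%. All 3 were higher in both K700E libraries than in either wild-type library at day 4, which the way they were chosen favoured. All 3 add a multiple of 3. At day 8 acceptor A stood at 0% (limit 0.242%) and 3.58% under the wild-type label and at 1.21% and 6.11% under the K700E label. Acceptor B stood at 0% (limit 0.199%) and 7.74%, then at 0.147% and 1.91%. By share, the 3 acceptors were each lowest in the same 4 libraries as the leading junction. For the acceptor 114 nt upstream, the K700E day 8 replicate 1 value rests on 3 of 62 reads, with an interval of 1.66% to 13.3% that reaches over the high libraries.

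TOR1AIP2 (ENSG00000169905.12, chromosome 1, 179839967 to 179877803, minus strand) had the closest pair of wild-type shares of the 5 genes at day 4. They rest on 5 reads each, with intervals of 0.321% to 1.74% and 0.337% to 1.83%, so nothing is read from their closeness. The unannotated leading junction of TOR1AIP2, chr1:179865870-179877238, ends 15 nt upstream of the reference acceptor. At day 4 it held 5 of 667 reads (0.75%) and 5 of 634 (0.789%) in wild type and 208 of 917 (22.7%) and 192 of 716 (26.8%) in K700E. The means were 0.769% ± 0.0276 and 24.7% ± 2.92 (SD, n = 2), 24.0 points apart without overlap. At day 8 it stood at 0.743% (0.391% to 1.41%) and 41.5% (38.8% to 44.2%) under the wild-type label, and at 1.58% (0.863% to 2.89%) and 33.4% (30.9% to 35.9%) under the K700E label. An annotated junction from the same donor that skips the exon took 4.65% and 4.57% in wild type and 3.16% and 3.49% in K700E at day 4, a loss. At day 8 the skip took 3.3% and 1.6% under the wild-type label and 5.07% and 1.53% under the K700E label.

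A donor further upstream in TOR1AIP2, at position 179877692, splices into the same pair, the upstream and the reference acceptor, and gave a second reading from other reads. Counting only reads into the pair, the upstream acceptor took 4 of 50 (8.0%) and 0 of 52 in wild type and 22 of 68 (32.4%) and 17 of 52 (32.7%) in K700E at day 4. The 0 allows up to 5.77%. From the donor of the leading junction the same measure was 0.808% and 0.879% against 208 of 857 (24.3%) and 192 of 662. At day 8 the further donor gave 0 of 53 (limit 5.66%) and 23 of 57 (40.4%) under the wild-type label. Under the K700E label it gave 0 of 20 (limit 15.0%) and 13 of 56 (23.2%, interval 14.1% to 35.8%). By share, both donors put the same libraries low and high. The limit of 15.0% and the interval of the 8.0% in wild type, 3.15% to 18.8%, reach into that last interval. The further donor rests on 20 to 68 reads a library and shares the acceptor pair, the cells and the library with the first.

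ZDHHC16 (ENSG00000171307.18, chromosome 10, 97446131 to 97457370, plus strand) was the thinnest of the 5 leading sites, with 94 to 151 reads a library. Its annotated junction chr10:97454800-97455638 ends 21 nt upstream of the reference acceptor and its added bases are coding in ZDHHC16-205. The junction held 1 of 94 reads (1.06%) and 4 of 146 (2.74%) in wild type and 38 of 115 (33.0%) and 45 of 148 (30.4%) in K700E at day 4. The means of 1.9% ± 1.19 and 31.7% ± 1.87 (SD, n = 2) were 29.8 points apart without overlap. At day 8 the pair with the wild-type label stood at 10.6% (6.63% to 16.5%) and 39.7% (31.4% to 48.6%), and the pair with the K700E label at 5.26% (2.27% to 11.7%) and 37.3% (28.8% to 46.6%). In 1 low day 8 library, wild type replicate 1, the interval of this junction lay above the day 4 wild-type shares of 1.06% and 2.74%. None of the other 4 leading junctions showed this in that library. In K700E replicate 1, the other low library, the TOR1AIP2 interval of 0.863% to 2.89% lay above its day 4 wild-type shares of 0.75% and 0.789%. By share alone, 3 of the 5 leading junctions there were above both day 4 wild-type libraries, against 1 in wild type replicate 1. Each of these intervals overlapped those of the day 4 wild-type shares, as with 1.07% to 6.83% for the 2.74% share of ZDHHC16. The third acceptor of this ZDHHC16 donor, annotated and 54 nt downstream of the reference, took 9.57% and 5.48% in wild type and 4.35% and 2.7% in K700E at day 4, a loss. At day 8 it took 9.27% and 0% of 121 reads (limit 2.48%) under the wild-type label, and 7.37% and 2.73% under the K700E label.

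A junction at another donor of ZDHHC16 did not keep to the order of its leading junction. It skips a 48-nt exon, chr10:97453799-97453846, coding in 5 of the annotated transcripts, through chr10:97453664-97454713, and was chosen after its values were seen. Skipping took 7 of 71 donor reads (9.86%) and 12 of 138 (8.7%) in wild type and 40 of 126 (31.7%) and 33 of 106 (31.1%) in K700E at day 4. The difference of 22.2 points did not pass the call rule. At day 8 it was 29 of 131 (22.1%) and 41 of 81 (50.6%) under the wild-type label, and 43 of 107 (40.2%) and 29 of 86 (33.7%) under the K700E label. The K700E day 8 replicate 1 library was thus among the high ones for skipping and among the low ones for the upstream acceptor, at 5.26%.

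**Figure D2:**
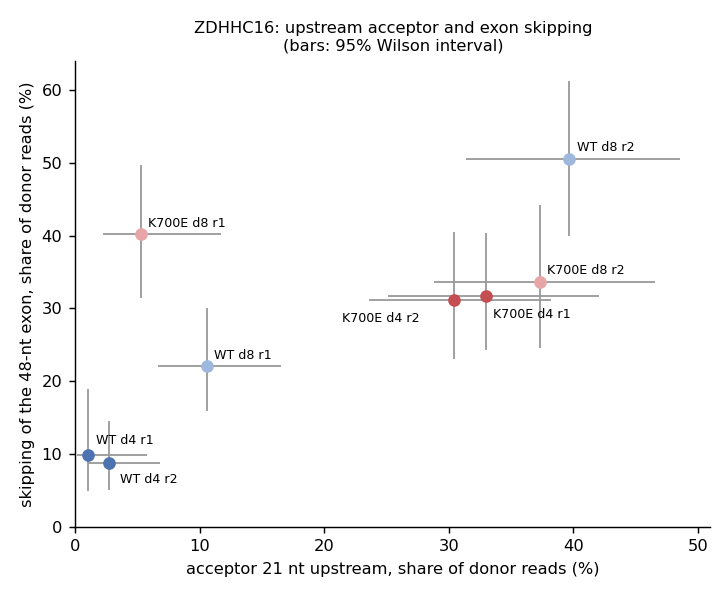
ZDHHC16 in the 8 libraries: share of the acceptor 21 nt upstream (horizontal axis, percent of donor reads) against the share that skips the 48-nt exon (vertical axis, percent of donor reads). Points are libraries (wild type blue, K700E red, day 8 pale; d for day, r for replicate), bars are 95% Wilson intervals, and the point labelled K700E d8 r1 is low on one axis (5.26%) and high on the other (40.2%).

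Across the 5 genes, the leading junctions separated the genotypes at day 4, the contrast on which the genes were chosen, so nothing is read from that. At day 8 they overlapped between labels in each gene, and the share of all junctions that did so was not counted. The day 8 difference, K700E minus wild type as labelled, was 8.53 points in GCC2, 0.556 in ERGIC3, -4.21 in TMEM214, -3.63 in TOR1AIP2 and -3.86 in ZDHHC16. The edgeR quasi-likelihood test gave unadjusted p of 0.865, 0.993, 0.911, 0.93 and 0.802 for these, and an adjusted p of 1.0 for each. No junction of the 5 genes was called at day 8, 0 of 57 at shared donors and 0 of 42 at shared acceptors by edgeR and by limma, with 1 of each at an unadjusted edgeR p under 0.05. Over all junctions tested that day the share called was 0% of 63314 and 0% of 59492, while 1765 and 1652 had an unadjusted p under 0.05, and limma called 0. These differences depend on which library is left out: they ranged from -25.8 to 42.8 points in GCC2, from -6.71 to 7.82 in ERGIC3, from -26.0 to 17.5 in TMEM214, from -24.0 to 16.7 in TOR1AIP2 and from -19.9 to 12.1 in ZDHHC16.

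**Figure D3:**
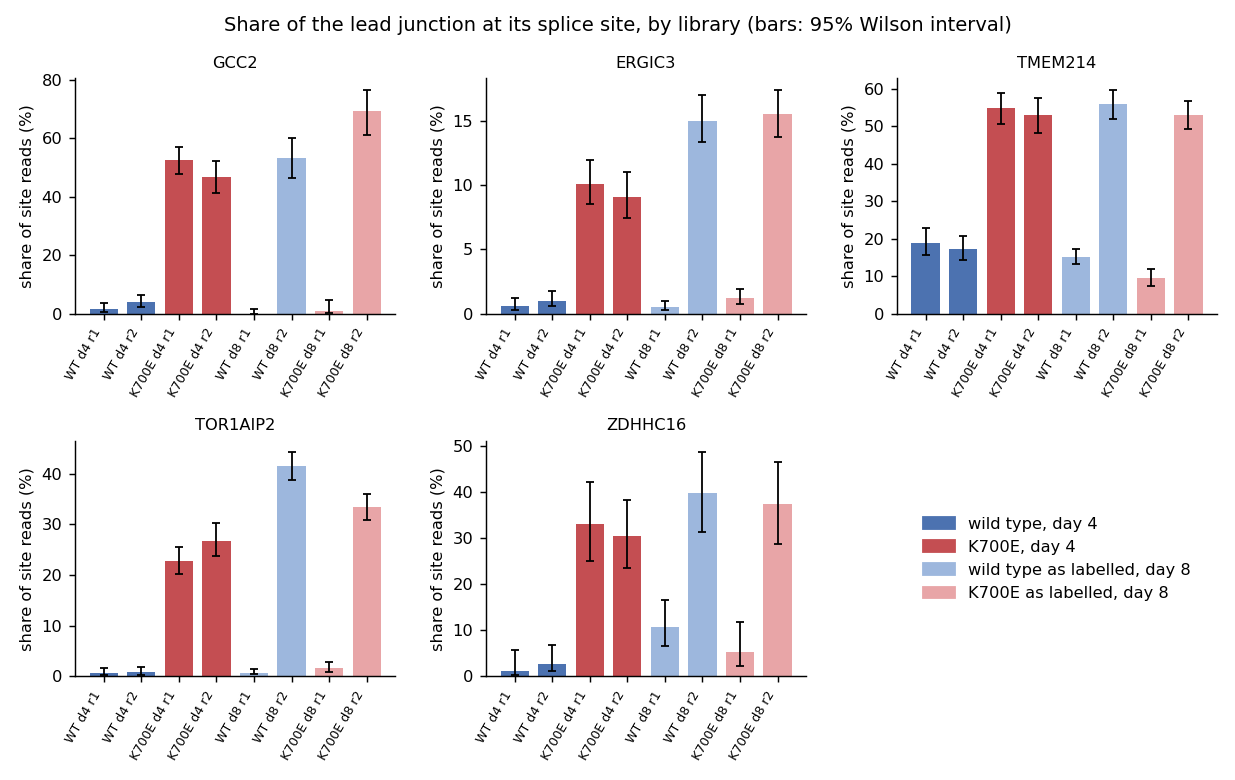
Share of the leading junction at its shared splice site (vertical axis, percent; each panel has its own scale) in the 8 libraries of the 5 genes. Blue is wild type and red K700E, pale for day 8 as labelled; d is day, r is replicate, and error bars are 95% Wilson intervals. In every panel both K700E libraries at day 4 and both replicate 2 libraries at day 8 stand above the other 4 libraries.

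The size of the gain varied among the genes. Since both the genes and the set beside them were picked on day 4 gains, their place in the set is a description only. Of the 150 acceptors 1 to 50 nt upstream that were called higher at day 4, GCC2 stood at rank 14 by gain, ZDHHC16 at 36, TOR1AIP2 at 48 and ERGIC3 at 115. The median gain of the 150 was 14.7 points and their median distance from the reference acceptor 17.0 nt, with 9 to 37 nt as the extremes. At 12, 15, 18 and 21 nt the 4 acceptors lay around that median. TMEM214, whose leading junction is an exon of its own, has no rank in this set.

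**Figure D4:**
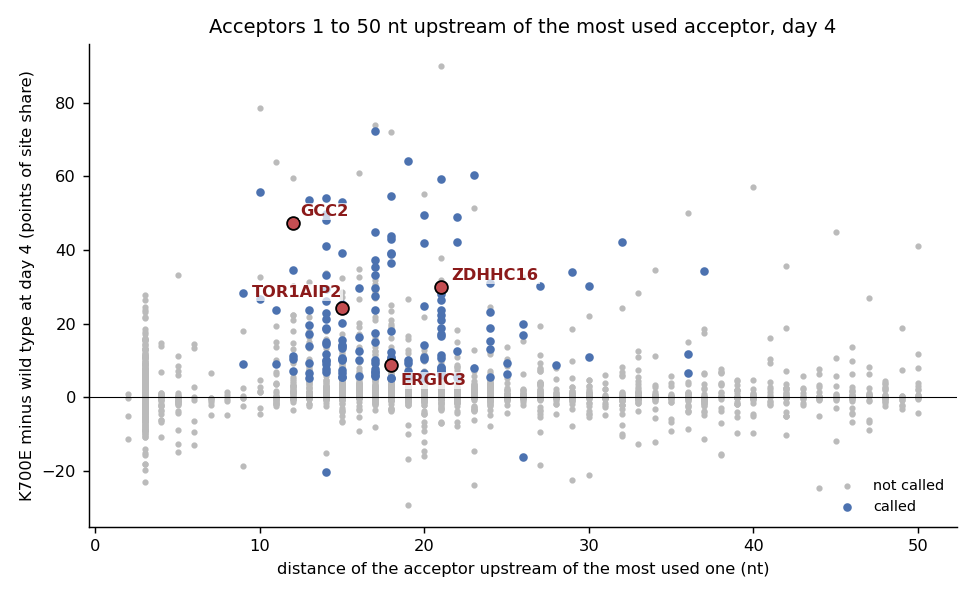
Each point is an acceptor 1 to 50 nt upstream of the most used acceptor of its donor (horizontal axis, nt), with its change in share between K700E and wild type at day 4 (vertical axis, percentage points, from reads of tested junctions). Blue points were called and grey ones not; GCC2, TOR1AIP2, ERGIC3 and ZDHHC16 are marked in red at 12, 15, 18 and 21 nt.

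The junctions of other genes most like these in pattern were ranked by Pearson's r with the mean of the 5 leading shares over the 8 libraries, among 21561 junctions with at least 20 reads at their site in each library and a range of 20 points or more. The leading 5 genes were ECT2 (r 0.998, an acceptor 18 nt upstream), DIP2A (0.996, 17 nt upstream), TMEM14C (0.995, 14 nt upstream), HOXB-AS1 (0.994, 32 nt downstream) and ZNF410 (0.994, 21 nt upstream). ECT2 had 0.57% and 0.68% in wild type and 40.0% and 38.4% in K700E at day 4, and 0%, 50.8%, 0.741% and 54.4% in the wild-type and K700E labels at day 8. The 8 points share libraries and depth and fall into a low and a high set, so r mainly records that split and is given as a description.

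Gene levels moved little at day 4. A gene level is the unique reads over all annotated introns of the gene, in CPM, which leaves out the unannotated leading junctions of GCC2 and TOR1AIP2. GCC2 had 143 and 145 CPM in wild type and 150 and 138 in K700E, a log2 difference of 0.01 (SE 0.12). For ERGIC3 the values were 203 and 191 against 166 and 174, log2 -0.20 (SE 0.12), the 1 gene of the 5 in which the groups did not overlap at day 4. How many of all genes were without overlap at day 4 was not counted, so nothing is read from that separation. TMEM214 had 115 and 113 against 117 and 114, TOR1AIP2 36.3 and 29.8 against 34.0 and 27.4, and ZDHHC16 14.1 and 19.7 against 15.8 and 17.6. Their log2 differences were 0.02 (SE 0.12), -0.09 (SE 0.20) and -0.002 (SE 0.23). Without introns that share a site with the leading junction, every day 4 gene difference of the 5 genes moved by less than the spread between replicates. Over all 13991 genes tested the median log2 difference was 0.016, and 0.529% were called at an adjusted p under 0.05 (edgeR, quasi-likelihood), 32 higher and 42 lower. That count of 74 was 0 when either wild-type library was left out, and 2536 and 1255 when K700E replicate 1 or 2 was. In bulk RNA, fewer cells that express a gene and less RNA per cell cannot be told apart.

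At day 8, GCC2 had 96.8 and 68.3 CPM under the wild-type label and 73.0 and 49.2 under the K700E label, each below its day 4 values. ERGIC3 had 282 and 281 against 328 and 254, and TMEM214 249 and 154 against 202 and 185, each above its day 4 values. TOR1AIP2 had 45.0 and 34.3 against 30.1 and 32.5, and ZDHHC16 26.0 and 14.8 against 24.8 and 22.1. The log2 differences between labels were -0.47 (SE 0.31), 0.01 (SE 0.23), -0.10 (SE 0.30), -0.38 (SE 0.24) and 0.16 (SE 0.35) in the order GCC2, ERGIC3, TMEM214, TOR1AIP2, ZDHHC16, each with an edgeR adjusted p of 1.0. Of 13990 genes tested at day 8, 0% were called by edgeR, 408 had an unadjusted p under 0.05, and DESeq2 called 20. Days were not tested against each other, since the names of the read files in the file headers differ between day 4 and day 8 and such a difference cannot be told apart from the day.

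**Figure D5:**
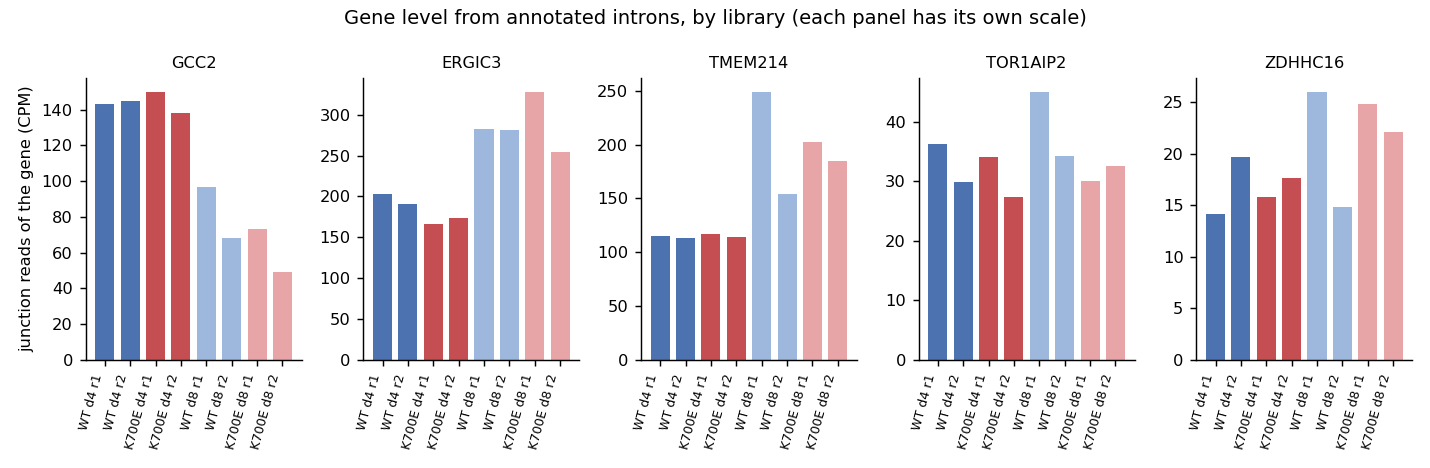
Gene level (vertical axis, CPM of unique reads over annotated introns; each panel has its own scale) of the 5 genes in the 8 libraries; blue is wild type, red K700E, pale for day 8 as labelled, d is day and r replicate. Day 4 bars of the 2 genotypes are close in GCC2 (138 to 150 CPM) and TMEM214 (113 to 117 CPM), and GCC2 is lower at day 8 in all 4 libraries.

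The genes of the same pathways were taken from 6 lists with 105 genes, chosen with earlier results of these data known; 101 were tested at day 4 and 0 were called by edgeR, against 0.529% of all genes. Of the 101, 37 (36.6%) had an unadjusted p under 0.05, beside 21.3% of all genes tested. DESeq2 called 6 higher and 16 lower, 21.8% beside 11.7% of all genes, and 36 were above and 65 below 0 in log2 difference. At day 8 none of 100 was called by edgeR or DESeq2, and 0 had an unadjusted edgeR p under 0.05. The median log2 difference at day 4 was -0.24 for 16 golgins and the factors that recruit them, -0.12 for 20 cargo receptors, -0.16 for 19 coat proteins of COPI and COPII, 0.01 for 21 palmitoyltransferases and accessories, 0.02 for 15 torsins and nuclear envelope genes, and -0.24 for 10 ER stress genes, beside 0.016 over all genes.

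The 2 genes with the lowest p in each list show the size of these values, none of them past the adjusted threshold of edgeR's quasi-likelihood test. Among golgins, GOLGA4, a tether of the trans-Golgi, had 272 and 300 CPM in wild type and 152 and 160 in K700E at day 4 (log2 -0.86, SE 0.13, adjusted p 0.0651), and ARL1, the GTPase that recruits GRIP golgins, had log2 -0.52 (SE 0.12). Among cargo receptors, LMAN1, the lectin of ER exit, had 627 and 715 CPM against 388 and 434 (log2 -0.69, SE 0.13, adjusted p 0.091), and TMED10 had log2 -0.49 (SE 0.12). The coat subunits COPZ1 and SEC13 had log2 -0.77 (SE 0.13) and -0.82 (SE 0.14). These 6 genes were lower in both K700E libraries than in either wild-type library at day 4. They were picked by their low p in that same contrast, so nothing is read from this separation. Between labels at day 8, the log2 differences were -0.25 for GOLGA4, -0.14 for ARL1, -0.71 for LMAN1, -0.57 for TMED10, 0.42 for COPZ1 and 0.25 for SEC13, so both coat subunits had the other sign, and each edgeR adjusted p was 1.0.

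The palmitoyltransferases ZDHHC13 and ZDHHC21 were on the other side. ZDHHC13 had 15.6 and 15.1 CPM in wild type and 33.1 and 31.0 in K700E at day 4 (log2 1.08, SE 0.17, edgeR adjusted p 0.0668), and ZDHHC21 had log2 1.08 (SE 0.23) at 5.67 and 5.15 against 10.4 and 12.1 CPM. In the nuclear envelope list, SUN1, a LINC complex protein, had log2 -0.67 (SE 0.13), and SYNE1, which binds SUN proteins, had 37.3 and 38.0 CPM against 81.3 and 216. Its K700E libraries differed from each other more than the nearer one differed from wild type. Among ER stress genes, CASP4, the caspase linked to TMEM214, had 38.5 and 31.3 CPM against 18.8 and 12.3 (log2 -1.15, SE 0.26, edgeR adjusted p 0.11), and the kinase EIF2AK3 had log2 -0.34 (SE 0.13). Between labels at day 8, the differences were -0.02 for ZDHHC13 and ZDHHC21, 0.01 for SUN1, -1.91 for SYNE1, opposite in sign to its day 4 value of 2.00, -0.54 for CASP4 and -0.38 for EIF2AK3, each with an edgeR adjusted p of 1.0.

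Junction use in the same lists gave almost no calls. Of 644 junctions tested at shared donors at day 4, 0 were called higher and 1 lower, and of 619 at shared acceptors 0 were called by edgeR, beside 0.468% and 0.0309% of all junctions. Of these, 61 (9.47%) and 34 (5.49%) had an unadjusted p under 0.05, beside 7.02% and 5.65% of all junctions tested. The 1 junction was an unannotated one of ZDHHC17, a palmitoyltransferase, with 3.98% and 11.7% in wild type and 0% in both K700E libraries (-7.97 points, edgeR adjusted p 0.0427). Its share was 0% in all 4 libraries of day 8. No read limit is given for its zeros at either day, and rare junctions were seldom listed under the wild-type label at day 8.

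The summed levels of the megakaryocyte, lymphoid and epithelial marker lists did not overlap between genotypes at day 4, and their part in the gene levels was not tested. The share of all genes without overlap was not counted, so nothing is read from this. The summed level of 5 megakaryocyte markers was 12.6 and 23.8 CPM in wild type and 126 and 123 in K700E, mostly ITGA2B, while the platelet genes GP1BA and PF4 were at 0 in wild type and at most 0.132 CPM in K700E. The 4 lymphoid markers summed to 1330 and 1560 CPM against 3020 and 2030, nearly all from PTPRC, which blood cells in general express. The 7 epithelial markers summed to 852 and 981 against 688 and 488, with no overlap. The sums of 10 erythroid markers (1800 and 1480 against 1590 and 889) and of 3 fibroblast markers (9.92 and 7.69 against 8.13 and 6.21) overlapped. Megakaryocyte sums at day 8 were 96.0 and 74.0 CPM under the wild-type label and 39.4 and 515 under the K700E label, the lymphoid ones 1450 and 672, then 768 and 853, and the epithelial ones 1020 and 1090, then 1220 and 2610. The erythroid sums were 1690 and 986, then 1280 and 1130, and the fibroblast ones 5.54 and 23.1, then 10.7 and 40.4.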

How the data were processed

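The authors deposited raw read counts per splice junction for 8 K562 libraries, unique and multi-mapped reads in separate columns. Reads were trimmed with cutadapt and aligned to hg38 with STAR, per the submitters' processing notes, in version 2.7.0e with GENCODE 29 in the index and GENCODE 22 added at mapping, per the file headers. Per the file headers, an unannotated junction needed an overhang of 12 nt and 1 unique read (30 nt and 3 reads without a canonical motif). Libraries were strand-specific, per the labels' protocols.

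Junctions were assigned to genes by introns and splice sites of GENCODE 29. The leading junction was the one named in the rule for TOR1AIP2, GCC2 and TMEM214. For ERGIC3 and ZDHHC16 it was the acceptor 1 to 50 nt upstream of the reference with most K700E day 4 reads. Other junctions named were those called, less used ones at the same sites, and some chosen after their values were seen, as stated beside them. Less used junctions were named for ERGIC3, TMEM214, TOR1AIP2 and ZDHHC16, and none for GCC2. Pathway genes were those called, or else the 2 with the lowest p in each list. The members, lists and tests were chosen with earlier results of these data known.

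Junctions with 5 reads in 2 libraries, at sites with 2 such junctions and a mean of 20 reads, were tested per day with edgeR 4.0.16 (TMM, quasi-likelihood, diffSpliceDGE), adjusted over the whole table. diffSpliceDGE measures a junction against the average of its site, so the loss of a dominant junction is called less readily than the gain of a rare one. Gene counts were unique reads over introns of 1 gene, filtered by filterByExpr; introns of 2 genes carried 4.17% of reads and were left out. Alternatives used limma 3.58.1, DESeq2 1.42.0, all 8 libraries in 1 model, other filters, the replicate number as a block and each library left out. The tests were tried on simulated data. With 2 libraries against 2, a permutation test cannot go below a two-sided p of 0.333, so none was run.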

Additional observations from a re-analysis of the deposited data

How the results depend on the processing

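At day 4 the 5 leading junctions kept their direction and moved by less than the spread between replicates with multi-mapped reads added and with the leading and reference junctions alone. In TMEM214 those 2 junctions hold all reads of the site, so the last setting could not move its value. With 1 library left out, where 2 libraries a group keep the shift within that spread by construction, the gains were 44.1 to 49.9 points in GCC2, 8.25 to 9.32 in ERGIC3, 34.8 to 36.6 in TMEM214, 21.9 to 26.0 in TOR1AIP2 and 28.5 to 31.1 in ZDHHC16. At day 8 their sign changed with 1 library left out (ranges -25.8 to 42.8, -6.71 to 7.82, -26.0 to 17.5, -24.0 to 16.7 and -19.9 to 12.1 points in the same order), and adjusted p over all settings run ranged from 0.113 to 1.0.

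Series-wide counts were less stable, and the cause was not tested. The 327 acceptor calls became 0 with all 8 libraries in 1 model, and 8 to 110 with 1 library left out. The 20 donor calls became 81 with limma, 0 with all 8 libraries, 38 with 10 reads required, and 0 to 58 with 1 left out. The 74 genes called at day 4 became 1640 with DESeq2, 0 with all 8 libraries, 1567 with no filter beyond 1 read, and 0 to 2536 with 1 left out. At day 8, DESeq2 called 20 genes and no other setting called any gene or junction.

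Replicate numbers are shared between genotypes, but the labels name no shared origin, and deviations of same-numbered libraries correlated at 0.153 (day 4) and 0.264 (day 8) over 14890 genes. With the replicate block, acceptor calls were 247, donor calls 8 and gene calls 126 at day 4.

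Day 8 gene levels changed sign in ERGIC3 (log2 0.01) to -0.001 with DESeq2, -0.001 with the replicate block, -0.004 without introns that share a site with the leading junction, and -0.18 to 0.20 with 1 library left out; the ranges were -0.78 to -0.18 in GCC2, -0.40 to 0.31 in TMEM214, -0.56 to -0.15 in TOR1AIP2 and -0.18 to 0.64 in ZDHHC16. At day 4 they were -0.05 to 0.06 in GCC2, -0.26 to 0.05 in TOR1AIP2 and -0.23 to 0.25 in ZDHHC16, which change sign, and -0.25 to -0.16 in ERGIC3 and 0.007 to 0.03 in TMEM214, which do not. ZDHHC16, with 94 to 151 reads at its site, has the widest counting intervals of the 5 leading junctions, apart from the wild-type libraries at day 4. In those, the intervals of TMEM214 are wider.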

Other observations

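TOR1AIP2 and ZDHHC16 each had a further annotated junction with a day 4 difference of over 10 points that was not called, picked out after the values were seen. In TOR1AIP2 the junction chr1:179852812-179865435 leaves out the exon that follows the leading acceptor's exon, and it took 39.7% and 45.9% of its donor's reads in wild type and 55.2% and 52.2% in K700E at day 4. The day 8 shares were 57.9% and 63.2% under the wild-type label and 39.5% and 52.5% under the K700E label, with 76 to 214 reads a library, so the order between labels was opposite to that of day 4. In ZDHHC16 the junction chr10:97452924-97453529 took 72.6% and 88.9% in wild type and 95.3% and 93.3% in K700E at day 4. Its day 8 shares were 53.9% and 96.9% under the wild-type label and 88.7% and 87.8% under the K700E label. Neither junction kept to the low and high sets of libraries that the 5 leading junctions form.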
